A study of Homo sapiens with 8 samples.

Results

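Growth factors and receptors of blood vessel growth were followed in HaCaT cells, an immortalised line of human keratinocytes, the main cells of the epidermis. The 10 genes were chosen by name: VEGFA, VEGFB, VEGFC, PGF, ANGPTL4, PDGFA, PDGFB, FGF2, EFNA1 and EPHA2. Each symbol stood once among the 24252 rows of every deposited table. The study compared 4 Control libraries, whose labels name no treatment, with 4 OGD-R libraries, from cells put through oxygen and glucose deprivation and then given both back. The labels call the stage early and do not give the times, and nothing in them tells whether a group's libraries are separate cultures. All p-values here therefore reflect library-to-library spread, which may be technical in part. They also treat the 4 Controls as independent of each other. The Controls fell into close pairs, so fewer than 4 may be independent, and the p-values may overstate the evidence. The series title places the work in complex regional pain syndrome.

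VEGFA is the central signal for new blood vessels. It is secreted by cells short of oxygen, partly through hypoxia-inducible factor (HIF), and acts on receptors of endothelial cells. VEGFB, VEGFC and PGF belong to the same family and differ in the receptors they bind, with VEGFC acting chiefly on lymphatic vessels. ANGPTL4 is a secreted inhibitor of lipoprotein lipase that responds to HIF and to the fatty acid sensors called PPARs. PDGFA and PDGFB feed mesenchymal cells and pericytes, FGF2 is a heparin-bound growth factor, and EFNA1 is a membrane-anchored ligand of the receptor tyrosine kinase EPHA2. In skin, keratinocytes are a main source of VEGFA for the dermal vessels beneath them.

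Expression was read as FPKM, fragments scaled to transcript length and library size, a unit inferred from the values since the tables do not name it. Summed FPKM per library lay between 428984 and 475385, and the spacing of the lowest values implied between 16870000 and 24930000 fragments. The OGD-R libraries lay close together and the Controls did not: gene by gene, log2 values had a median SD of 0.09 in OGD-R and 0.29 in Control. Controls 3 and 4 stood apart from Controls 1 and 2, with means at least 2-fold apart for 22.5% of the 11740 genes tested. Over these genes, log2 values correlated at 0.992 between Controls 1 and 2 and at 0.991 between Controls 3 and 4. Those of Controls 1 and 2 correlated with those of Controls 3 and 4 at 0.874 to 0.881. With the OGD-R libraries they correlated at 0.94 to 0.947, so Controls 1 and 2 were more like OGD-R than like the other Controls. Controls 3 and 4 correlated with OGD-R at 0.879 to 0.887. The tested members and the related lists are therefore given with all Controls and with either pair of them left out, and the labels do not say what separates the pairs. Keratinocyte marker genes were abundant in all libraries, with a summed level between 13082 and 21811 FPKM over 11 markers in Control and between 16229 and 17179 in OGD-R. All 8 endothelial markers were under 0.5 FPKM in every library, with sums between 0.0645 and 0.268 FPKM in Control and between 0.360 and 0.565 in OGD-R. Of these, VWF ran from 0.0475 to 0.113 FPKM in Control and from 0.296 to 0.455 in OGD-R. Of 7 fibroblast markers, 5 were under 0.5 FPKM in every library. COL1A1, a collagen gene, made up most of the list's sum, which ran from 0.882 to 8.72 FPKM in Control and from 3.82 to 4.99 in OGD-R. DCN and LUM were low but higher in every OGD-R library than in any Control. The share of all genes that did so was not counted. DCN was at most 0.0327 FPKM in Control and 0.105 to 0.540 in OGD-R, and LUM at most 0.0581 and 0.143 to 0.225. Of 6 immune markers, 5 were under 0.5 FPKM throughout and the sixth, CD68, a lysosomal protein, was lower in OGD-R. Sums of that list were between 12.4 and 16.8 FPKM in Control and between 3.32 and 3.99 in OGD-R.

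The DNA just before the RefSeq start of 2 of these genes is shown, ANGPTL4 because it was the member with the smallest p and EPHA2 as a gene whose level differed between the Control pairs. RefSeq windows were found for 8 of the 10 members, not for VEGFA and PDGFB. The sequences are 250 bases before the start on GRCh38.p14, 5′ to 3′ on the gene's own strand. ANGPTL4 is at chr19:8363905-8364154 (plus strand) and EPHA2 at chr1:16156070-16156319 (minus strand). RefSeq starts differ from the GENCODE 29 gene bounds given with the values. The ANGPTL4 window lies wholly inside the GENCODE gene, in introns of longer transcripts but for 4 bases of 5′ UTR, and the EPHA2 window shares 18 bases with the 5′ UTR. Capitals mark matches on either strand to the HIF core ACGTG, the AP-1 motif TGANTCA and the GC box GGGCGG, in which neighbouring GC boxes may overlap.
ANGPTL4: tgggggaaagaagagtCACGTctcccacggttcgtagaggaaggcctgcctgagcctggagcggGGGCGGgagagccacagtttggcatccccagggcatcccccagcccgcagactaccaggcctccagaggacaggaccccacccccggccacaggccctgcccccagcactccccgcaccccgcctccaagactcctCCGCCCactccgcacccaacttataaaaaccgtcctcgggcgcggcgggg
EPHA2: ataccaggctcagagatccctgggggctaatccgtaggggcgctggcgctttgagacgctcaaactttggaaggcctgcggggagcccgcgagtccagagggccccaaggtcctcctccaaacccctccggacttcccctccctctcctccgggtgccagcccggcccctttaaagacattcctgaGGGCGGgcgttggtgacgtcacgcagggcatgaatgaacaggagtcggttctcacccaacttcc
ANGPTL4 held 1 HIF core, which began 234 bases before the start, and 2 GC boxes. EPHA2 held 1 GC box and no HIF core. Neither window held an AP-1 motif. Over 35116 such windows of the genome, 18.5% held the HIF core, 6.57% the AP-1 motif and 42.6% a GC box. A match in these letters is a description of the sequence and not evidence of binding.

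Most of the angiogenic genes were lower in OGD-R than in every Control library, and none was called higher. Among the genes tested, on the log2(FPKM + 1) scale, ANGPTL4 and VEGFA showed the largest decreases, VEGFC and PDGFB smaller ones and VEGFB a small and even one. PDGFA was at nearly the same level in both groups. EFNA1 and EPHA2 overlapped between the groups, and for both genes Controls 1 and 2 lay on a different level from Controls 3 and 4. Of the 10 genes, 8 averaged at least 1 FPKM across the libraries and were tested with limma on log2(FPKM + 1), with p-values adjusted over all 11740 genes tested. At an adjusted p of 0.05, 5 of the 8 fell and 0 rose, where 9.69% of all tested genes were called lower and 10.2% higher. The 5 were ANGPTL4, VEGFA, PDGFB, VEGFC and VEGFB. With all Controls the median log2 fold change of the 8 was -1.13, against 0.018 over all tested genes. This median depends on the Controls used and was not taken with a pair left out. Without Controls 3 and 4 the log2 fold changes of VEGFA, ANGPTL4, PDGFB, PDGFA, EFNA1 and EPHA2 were higher. That of VEGFC was lower and that of VEGFB was the same, as given below. Groups did not overlap, with OGD-R below, for these 5 and for the 2 genes too low to test, PGF and FGF2, where 14.8% of tested genes and 9.46% of all genes above 0 in any library did so. In bulk RNA, fewer cells making a transcript and less transcript per cell cannot be told apart.

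**Figure D1:**
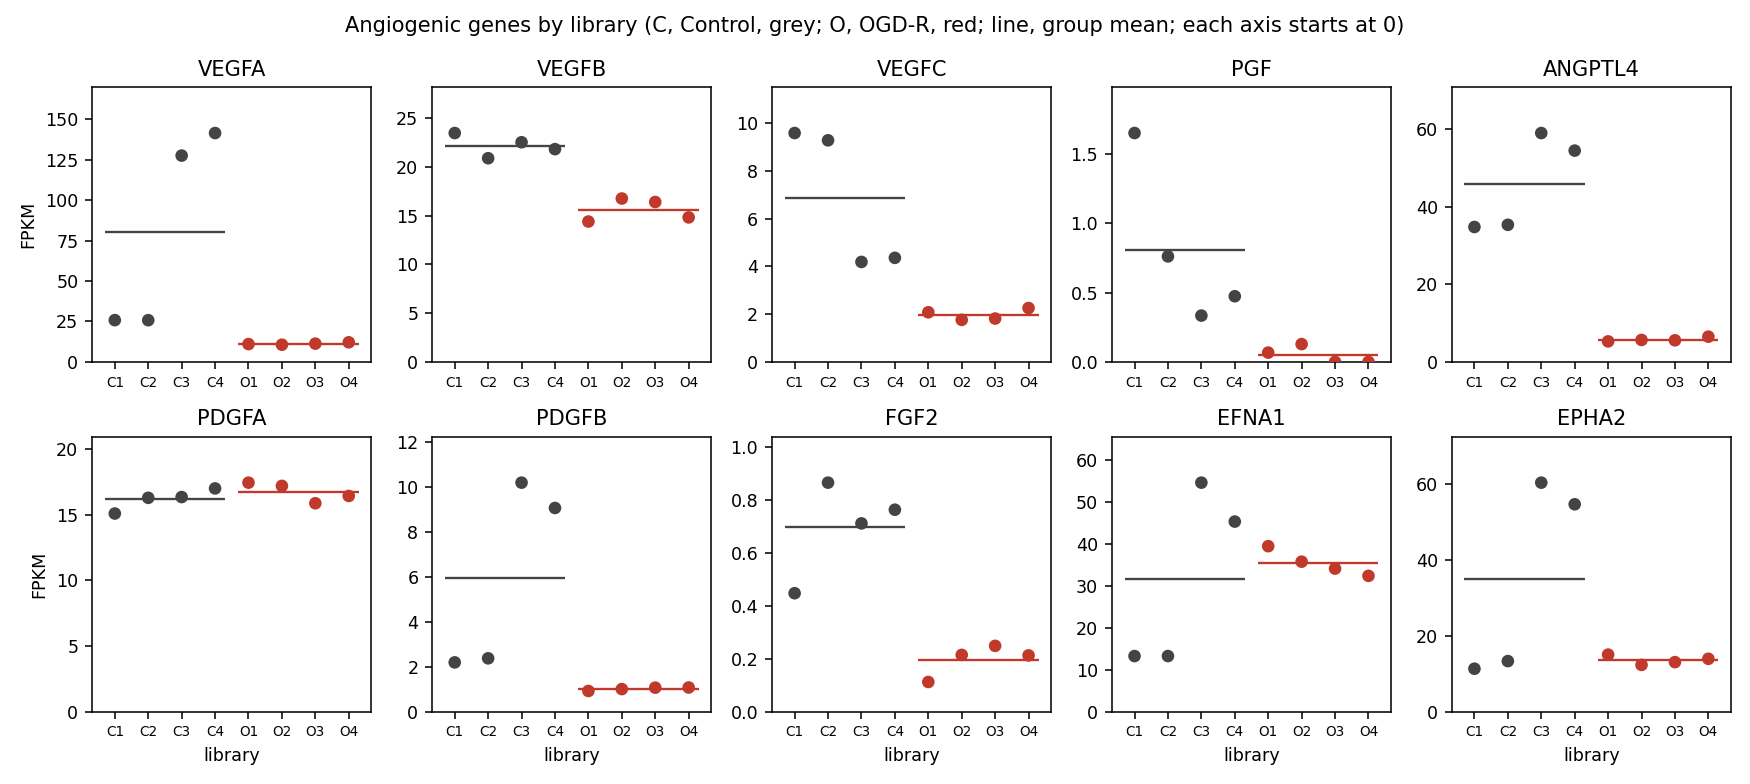
FPKM of the 10 genes in each library, with Controls (C, grey) and OGD-R (O, red) as points, group means as lines and every axis starting at 0. ANGPTL4, VEGFA, VEGFB, VEGFC, PGF, PDGFB and FGF2 sit lower in all 4 OGD-R libraries than in any Control, while PDGFA, EFNA1 and EPHA2 overlap.

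ANGPTL4 (ENSG00000167772, chromosome 19, 8363289 to 8374373, plus strand, GRCh38) changed most among the tested members on the log2 scale. Control 1 held 34.7 FPKM, Control 2 35.3, Control 3 58.9 and Control 4 54.4. OGD-R 1 to 4 held 5.28, 5.65, 5.56 and 6.50 FPKM. The lowest Control was thus well above the highest OGD-R library, and the Control mean of 45.8 FPKM was 7.97 times the OGD-R mean of 5.75 FPKM. On the log2 scale ANGPTL4 decreased by 2.76, with a standard error of 0.188 and a limma adjusted p of 9.66e-05. It ranked 20 among the decreases of all tested genes by size and 45 by p. With Controls 3 and 4 left out the log2 fold change was -2.42, and with Controls 1 and 2 left out it was -3.10. The gene overlaps the antisense gene RAB11B-AS1, and the sources used here do not tell whether counting used strand.

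VEGFA (ENSG00000112715, chromosome 6, 43770184 to 43786487, plus strand) was the most abundant of the 10 in Control by mean, and the most divided. Control 1 held 25.83 FPKM, Control 2 25.80, Control 3 128 and Control 4 142. OGD-R 1 to 4 held 11.0, 10.6, 11.3 and 12.1 FPKM, all below the lowest Control. Controls 3 and 4 averaged 5.21 times the mean of Controls 1 and 2. A difference of at least 3-fold in this direction between the Control pairs was seen in 4.73% of tested genes. On the log2 scale VEGFA decreased by 2.30 in OGD-R, with a standard error of 0.583 and a limma adjusted p of 0.0279, and it ranked 35 by size of decrease. This call was lost without Control 3 (limma adjusted p = 0.0585) and without any 1 of the OGD-R libraries (0.0707 to 0.0761). OGD-R levels were below either Control pair, by different amounts. Controls 1 and 2 averaged 2.29 times the OGD-R mean and Controls 3 and 4 averaged 11.9 times, with log2 fold changes of -1.13 and -3.47 in fits with the other pair left out. An antisense gene, AL136131.3, overlaps VEGFA.

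**Figure D2:**
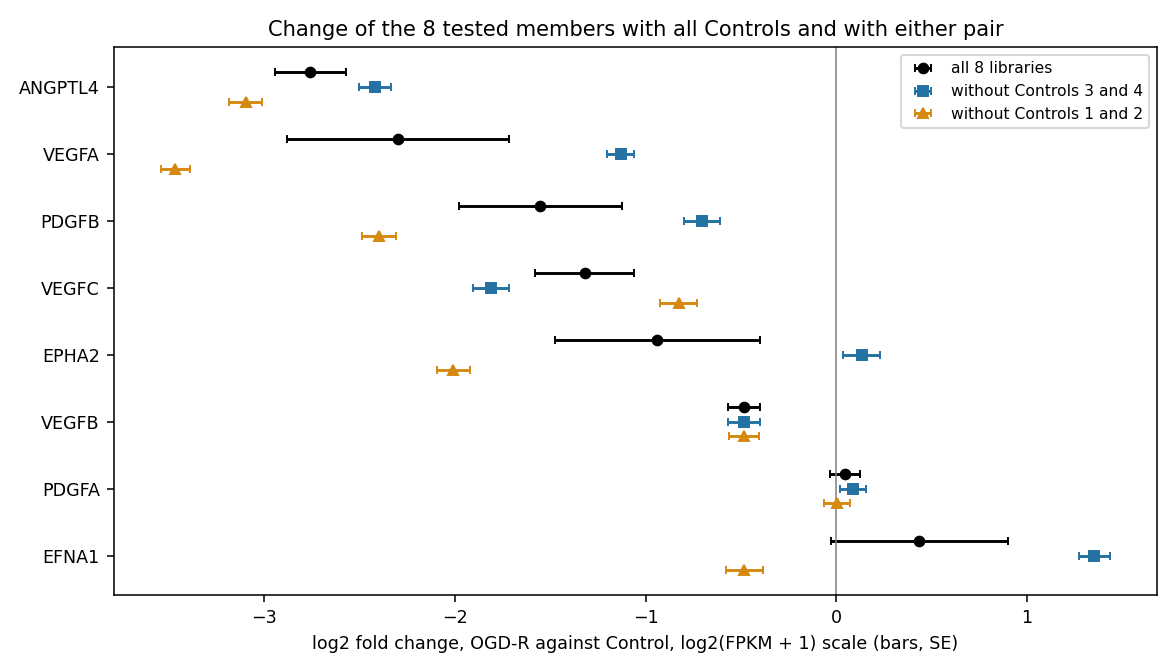
Log2 fold change of the 8 tested genes, OGD-R against Control, on the log2(FPKM + 1) scale, from all 8 libraries (black) and with either pair of Controls left out (blue and orange), with bars for the standard error. ANGPTL4, VEGFA, PDGFB, VEGFC and VEGFB stay left of 0 in all 3 fits, PDGFA sits at 0, and EFNA1 and EPHA2 cross 0 with the choice of Controls. For the genes that stay left of 0 the groups did not overlap, so leaving out Controls could not take them past 0.

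Among the other VEGF family ligands, VEGFB fell by a little in every comparison, and VEGFC and PGF were highest in Controls 1 and 2, opposite to VEGFA. VEGFB (ENSG00000173511, chromosome 11, 64234538 to 64238793, plus strand), a ligand tied to fatty acid uptake and vessel survival, held 23.5, 20.9, 22.5 and 21.8 FPKM in Controls 1 to 4. OGD-R 1 to 4 held 14.4, 16.8, 16.4 and 14.8 FPKM of it. The Control pair means differed by less than the spread within a pair, 22.19 and 22.18 FPKM, so VEGFB is a member that the split of the Controls did not touch. Its log2 fold change was -0.48 with a standard error of 0.0855 (limma adjusted p = 0.00661), and it stayed at -0.48 with either pair left out.

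VEGFC (ENSG00000150630, chromosome 4, 176683538 to 176792727, minus strand), the lymphatic factor, held 9.58, 9.28, 4.19 and 4.36 FPKM in Controls 1 to 4 and 2.08, 1.76, 1.81 and 2.25 FPKM in OGD-R 1 to 4. Controls 1 and 2 averaged 2.21 times Controls 3 and 4, and both pairs lay above OGD-R. VEGFC decreased by 1.32 on the log2 scale, with a standard error of 0.258 and a limma adjusted p of 0.0102. Without Controls 3 and 4 its log2 fold change was -1.81, and without Controls 1 and 2 it was -0.83. The antisense gene AC093801.1 overlaps VEGFC.

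PGF (ENSG00000119630, chromosome 14, 74941834 to 74955784, minus strand), the placental growth factor, was under the level required for the test. It held 1.65, 0.761, 0.334 and 0.473 FPKM in Controls 1 to 4, and 0.0670 and 0.128 FPKM in OGD-R 1 and 2, and was listed at 0 in OGD-R 3 and 4. The groups did not overlap, and the exact two-sided permutation p of 0.0286 is the smallest that 4 against 4 libraries can give. In a limma fit with no filter on low values the adjusted p of PGF was 0.0513.

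The sum over VEGFA, VEGFB, VEGFC and PGF was 60.5, 56.7, 155 and 168 FPKM in Controls 1 to 4 and between 27.6 and 29.5 FPKM in OGD-R. VEGFA made up 42.7% and 45.5% of this sum in Controls 1 and 2, 82.5% and 84.2% in Controls 3 and 4, and between 36.3% and 41.5% in OGD-R. VEGFB made up between 50.8% and 57.3% in OGD-R and at most 38.8% in any Control. The ratio of VEGFA to VEGFB, per length, was 1.10 and 1.23 in Controls 1 and 2, 5.66 and 6.49 in Controls 3 and 4, and between 0.634 and 0.818 in OGD-R. VEGFB was thus the more abundant of the pair in all 4 OGD-R libraries, and VEGFA in all 4 Controls.

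**Figure D3:**
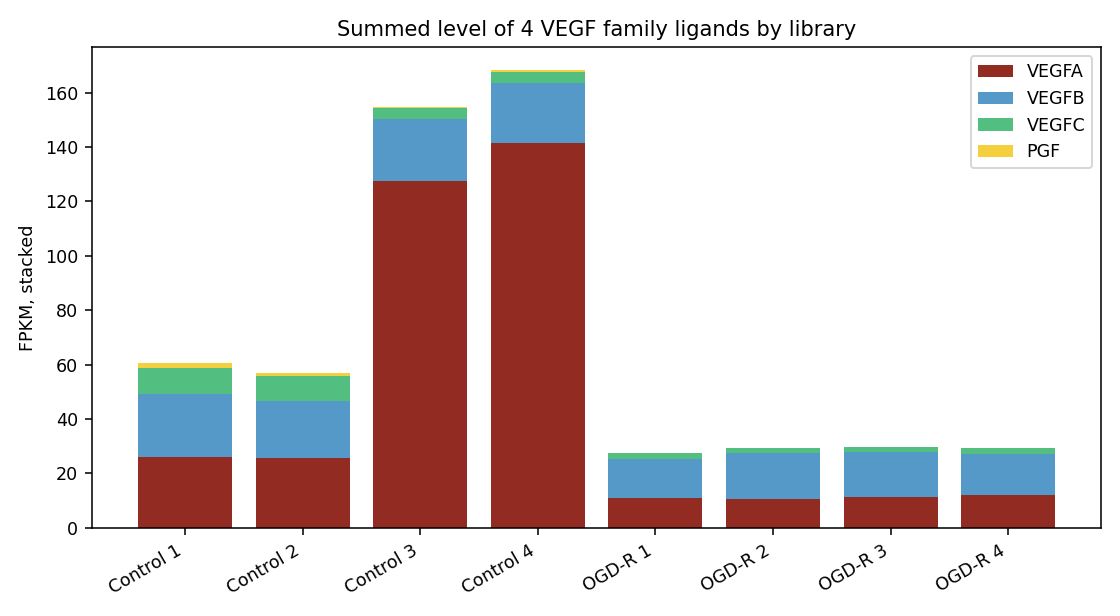
Stacked FPKM of VEGFA, VEGFB, VEGFC and PGF in each library, with the bar height as their sum. Controls 3 and 4 reach 155 and 168 FPKM, mostly VEGFA, Controls 1 and 2 reach 60.5 and 56.7, and the OGD-R bars end between 27.6 and 29.5 with VEGFB as the largest part.

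The 2 PDGF chains behaved differently. PDGFB (ENSG00000100311, chromosome 22, 39223359 to 39244751, minus strand), which recruits pericytes to vessels, held 2.18, 2.37, 10.2 and 9.05 FPKM in Controls 1 to 4. OGD-R 1 to 4 held 0.914, 0.997, 1.06 and 1.07 FPKM, all below the lowest Control. The split among the Controls ran the same way as in VEGFA, with Controls 3 and 4 at 4.23 times Controls 1 and 2. PDGFB decreased by 1.55 on the log2 scale, with a standard error of 0.427 and a limma adjusted p of 0.0372. The call was lost without Control 3 or Control 4 (limma adjusted p = 0.0704 and 0.0734), without any 1 OGD-R library (0.0886 to 0.0937) and with no filter on low values (0.0603). With a pair left out, the log2 fold change was -0.70 against Controls 1 and 2 and -2.40 against Controls 3 and 4. The antisense gene AL031590.1 overlaps PDGFB.

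PDGFA (ENSG00000197461, chromosome 7, 497258 to 520296, minus strand) held 15.1, 16.3, 16.3 and 17.0 FPKM in Controls 1 to 4 and 17.4, 17.2, 15.9 and 16.4 FPKM in OGD-R 1 to 4. The groups overlapped, and the log2 fold change was 0.05 with a standard error of 0.0777 (limma adjusted p = 0.711). It was 0.09 against Controls 1 and 2 alone and 0.0042 against Controls 3 and 4 alone. Its SD on the log2 scale was 0.068 in Control and 0.059 in OGD-R, so PDGFA also did not share the split of the Controls.

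FGF2 (ENSG00000138685, chromosome 4, 122826708 to 122898236, plus strand) was low in all libraries and was not tested with the rest. Controls 1 to 4 held 0.448, 0.866, 0.712 and 0.764 FPKM and OGD-R 1 to 4 held 0.112, 0.214, 0.248 and 0.212 FPKM. The groups did not overlap (exact two-sided permutation p = 0.0286, the smallest possible), and with no filter on low values the limma adjusted p was 0.00847, in a fit that called 5.37% of 21214 genes lower. NUDT6, a protein-coding gene on the other strand, overlaps FGF2, so reads of the pair may be mixed.

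EFNA1 and EPHA2, ligand and receptor, did not pass the test, and each held 2 separate levels among the Controls. EFNA1 (ENSG00000169242, chromosome 1, 155127460 to 155134857, plus strand) held 13.2, 13.2, 54.5 and 45.2 FPKM in Controls 1 to 4 and 39.4, 35.7, 34.03 and 32.3 FPKM in OGD-R 1 to 4. OGD-R thus lay between the Control pairs, above Controls 1 and 2 and below Controls 3 and 4. The log2 fold change of EFNA1 was 0.43 with a standard error of 0.464 (limma adjusted p = 0.547). It was 1.35 without Controls 3 and 4 (limma adjusted p = 1.52e-06) and -0.48 without Controls 1 and 2 (limma adjusted p = 0.00175), so EFNA1 was called in opposite directions.

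EPHA2 (ENSG00000142627, chromosome 1, 16124337 to 16156087, minus strand) held 11.3, 13.3, 60.4 and 54.7 FPKM in Controls 1 to 4 and 15.0, 12.3, 13.0 and 13.9 FPKM in OGD-R 1 to 4. OGD-R was at the level of Controls 1 and 2, and Controls 3 and 4 averaged 4.24 times the OGD-R mean. The log2 fold change of EPHA2 was -0.94 with a standard error of 0.538 (limma adjusted p = 0.255), 0.13 without Controls 3 and 4 (limma adjusted p = 0.264) and -2.01 without Controls 1 and 2 (limma adjusted p = 5.96e-08). An antisense gene, AL451042.2, overlaps EPHA2.

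The ratio of EFNA1 to EPHA2 separated the groups where the single genes did not. It was 1.17, 0.993, 0.903 and 0.828 in Controls 1 to 4 and 2.62, 2.90, 2.61 and 2.32 in OGD-R 1 to 4. In the Controls both genes were low together or high together. In OGD-R the ligand lay between its Control levels, while the receptor was at its lower Control level. This ratio was chosen after the values were seen and is given without a test.

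**Figure D4:**
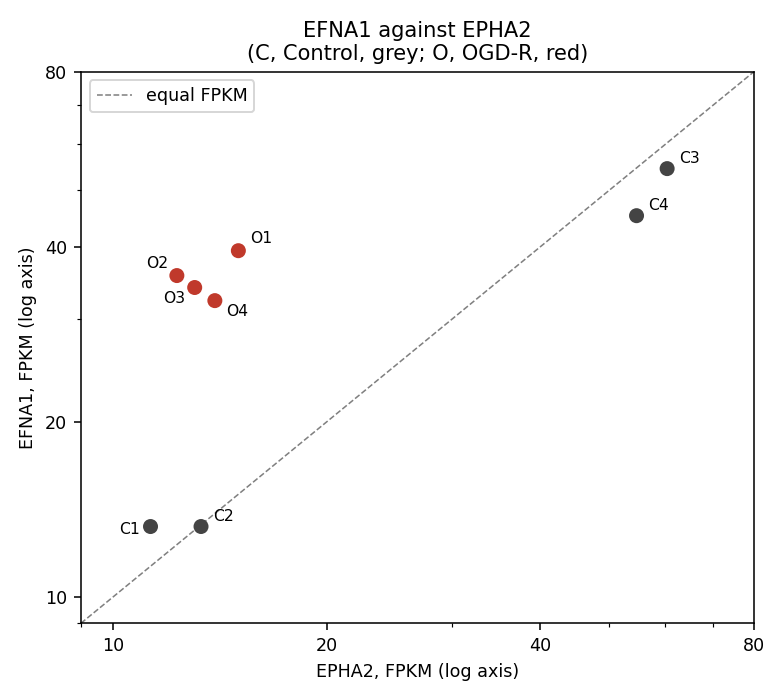
EFNA1 against EPHA2 in FPKM, both on log axes, with 1 point per library (C, Control, grey; O, OGD-R, red) and a dashed line of equal level. The Controls lie along the line at 2 places, with ratios between 0.828 and 1.17, and the OGD-R libraries lie above it, with ratios between 2.32 and 2.90.

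By mean FPKM, which is per length, the order in Control was VEGFA, ANGPTL4, EPHA2, EFNA1, VEGFB, PDGFA, VEGFC, PDGFB, PGF and FGF2. The ranges of the first 5 overlapped from each to the next, as did those of VEGFC with PDGFB and of PGF with FGF2. In OGD-R the order was EFNA1, PDGFA, VEGFB, EPHA2, VEGFA, ANGPTL4, VEGFC, PDGFB, FGF2 and PGF. There only PDGFA with VEGFB, VEGFB with EPHA2, and FGF2 with PGF had overlapping ranges. VEGFA went from rank 1 to rank 5 and EFNA1 from rank 4 to rank 1.

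With Controls 3 and 4 left out, 5 of the 8 tested genes were lower and 1, EFNA1, was higher, where 32.5% of tested genes were called lower and 22.8% higher. With Controls 1 and 2 left out, 7 were lower and 0 higher, where the shares were 28.4% and 39.2%. The 5 genes called with all libraries were called lower in both of these fits, a direction already fixed by their groups not overlapping. Such fits take their error from 1 Control pair and the OGD-R libraries, whose members lie close together. The p-values of these fits may therefore also overstate the evidence. The counts of the related lists below stand against these same shares, 10.2% higher and 9.69% lower with all Controls. The genes behind those counts differed between fits. FGFR2, SDC4, EPHB6, SEMA3A, TIMP3, FABP5, EPAS1 and HNRNPL were called in opposite directions with the choice of Control pair.

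The receptors for the VEGF and PDGF ligands were mostly under 0.5 FPKM. Of 7 VEGF and PDGF receptors and co-receptors, 5 were under 0.5 FPKM in every library: FLT1, KDR, FLT4, PDGFRA and PDGFRB. Of the 2 tested, 1 fell and 0 rose with all Controls, 2 were lower without Controls 3 and 4, and 1 without Controls 1 and 2. NRP1, a neuropilin that binds VEGFA beside its main receptors, held 9.99, 11.9, 5.27 and 5.55 FPKM in Controls 1 to 4 and between 1.83 and 2.22 FPKM in OGD-R. It decreased by 1.51 on the log2 scale, with a standard error of 0.238 and a limma adjusted p of 0.00407. As with VEGFC, Controls 1 and 2 were the higher pair, and the log2 fold change was -1.95 against Controls 1 and 2 alone and -1.06 against Controls 3 and 4 alone.

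Of 7 tested FGF receptors and FGF-binding genes, 2 rose and 0 fell with all Controls, with a median log2 fold change of -0.06. Against Controls 1 and 2 alone, 3 were higher and 2 lower (median 0.11), and against Controls 3 and 4 alone, 3 were higher and 3 lower (median 0.064), so of these 3 fits only the one with all Controls had no lower gene. FGFR3, a receptor of basal and suprabasal keratinocytes, held 4.69, 3.92, 3.72 and 3.03 FPKM in Controls 1 to 4 and between 12.8 and 18.8 FPKM in OGD-R. Its log2 fold change was 1.82 with a standard error of 0.144 (limma adjusted p = 0.000171). FGFBP1, a secreted carrier that frees FGF2 from the matrix, held 89.9, 92.0, 69.5 and 59.5 FPKM in Controls 1 to 4 and between 189 and 227 FPKM in OGD-R. It had a log2 fold change of 1.43 (limma adjusted p = 0.000787). FGFR3 and FGFBP1 kept the groups fully apart, with OGD-R above, and the share of all genes that did so in this direction was not counted. Of the 10 other VEGF, PDGF and FGF ligands only 2 were tested, and 1, FGF11, rose, with a log2 fold change of 0.32 (limma adjusted p = 0.0381). Its call was lost without Control 1, 2 or 3, or without OGD-R 2, 3 or 4 (limma adjusted p = 0.0585 to 0.120), and under rescaling by median ratios (0.0798). In this list 1 gene was higher in both fits with a Control pair left out, and 1 was lower without Controls 3 and 4.

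Of 19 other ephrins and Eph receptors 11 were tested, of which 3 rose and 1 fell, and the median log2 fold change was 0.37. Against Controls 1 and 2 alone, 5 were higher and 2 lower (median 0.23), and against Controls 3 and 4 alone, 7 were higher and 1 lower (median 0.58). EPHB3 held 7.81, 7.37, 7.40 and 5.68 FPKM in Controls 1 to 4 and between 18.1 and 21.7 FPKM in OGD-R, a log2 fold change of 1.35 (limma adjusted p = 0.000203). EPHA1 and the ligand gene EFNA3 had log2 fold changes of 0.96 and 0.63. EPHB4, a receptor of venous endothelium that epithelia also make, decreased by 0.46 on the log2 scale, from between 15.9 and 18.6 FPKM in Control to between 11.4 and 13.8 FPKM in OGD-R. All 12 angiopoietins, angiopoietin receptors and other angiopoietin-like genes were under 0.5 FPKM in every library, so ANGPTL4 was the 1 angiopoietin-like gene measured above that level.

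Of 7 tested inhibitors of vessel growth 3 fell and 2 rose, with a median log2 fold change of -0.41. With either Control pair left out, 4 were lower and 3 higher (median -0.29 without Controls 3 and 4, -0.59 without Controls 1 and 2). These were not the same genes, since SEMA3A and TIMP3 were called in opposite directions. Without Controls 3 and 4 their log2 fold changes were -0.29 and 0.67, and without Controls 1 and 2 they were 0.67 and -1.49. THBS1, thrombospondin 1, held 385, 445, 239 and 201 FPKM in Controls 1 to 4 and between 129 and 173 FPKM in OGD-R, and decreased by 1.05 on the log2 scale (limma adjusted p = 0.0237). COL18A1, whose protein is the source of endostatin, and ADAMTS1, a metalloprotease, decreased by 0.97 and 1.14. SERPINF1, which encodes pigment epithelium-derived factor, and SEMA3F, a semaphorin that binds neuropilins, had log2 fold changes of 1.12 and 0.82. Of these, ADAMTS1 was higher in Controls 3 and 4, at 7.11 and 5.75 FPKM, than in Controls 1 and 2, at 2.44 and 2.69, and THBS1 was lower there. Log2 fold changes of ADAMTS1 were -0.61 against Controls 1 and 2 alone and -1.67 against Controls 3 and 4 alone, and those of THBS1 were -1.51 and -0.59. The call of ADAMTS1 was lost without Control 4 (limma adjusted p = 0.0509) or any 1 OGD-R library (0.0593 to 0.0697), and that of THBS1 without OGD-R 1, 2 or 3 (0.0664 to 0.0740).

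Regulators of ANGPTL4 and other targets of the PPARs moved in both directions. Of 11 tested genes 3 rose and 1 fell with all Controls, with a median log2 fold change of 0.33. Against Controls 1 and 2 alone, 5 were higher and 2 lower (median 0.16), and against Controls 3 and 4 alone, 5 were higher and 5 lower, with the median turning to -0.18. PDK4, a kinase that restrains pyruvate oxidation, held 0.684, 0.773, 3.28 and 3.27 FPKM in Controls 1 to 4 and between 8.92 and 11.1 FPKM in OGD-R, with a log2 fold change of 1.97 (limma adjusted p = 0.00562), 2.63 against Controls 1 and 2 alone and 1.32 against Controls 3 and 4 alone. The fatty acid oxidation genes HADHA and ACADVL had log2 fold changes of 0.41 and 0.33. Both calls were lost without Control 3, without Control 4 and without any 1 OGD-R library, with limma adjusted p of 0.0744 to 0.122 for HADHA and 0.0504 to 0.0982 for ACADVL. HADHA also lost its call with no filter on low values (0.0507), and its log2 fold change was 0.22 against Controls 1 and 2 alone and 0.59 against Controls 3 and 4 alone. PLIN2, a lipid droplet coat protein, went down with ANGPTL4: it held 57.5, 56.1, 152 and 136 FPKM in Controls 1 to 4 and between 25.0 and 31.3 FPKM in OGD-R, and decreased by 1.71 on the log2 scale (limma adjusted p = 0.0112). Its log2 fold change was -1.04 against Controls 1 and 2 alone and -2.37 against Controls 3 and 4 alone.

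Of 12 tested regulators of VEGFA transcription or messenger stability 2 fell and 1 rose with all Controls, with a median log2 fold change of -0.35. Against Controls 1 and 2 alone, 6 were lower and 3 higher (median -0.26), and against Controls 3 and 4 alone, 7 were lower and 2 higher (median -0.44). FOSL1, an AP-1 subunit, and HIF1A decreased by 2.84 and 0.48 on the log2 scale, and SP1, which binds GC boxes, had a log2 fold change of 0.39. HIF1A ran from 45.5 to 54.9 FPKM in Control and from 34.9 to 37.4 FPKM in OGD-R, and SP1 from 12.3 to 17.3 and from 19.9 to 21.4. SP1 lost its call without Control 2 or any 1 OGD-R library (limma adjusted p = 0.0694 to 0.130), under rescaling by median ratios (0.0880), with no filter on low values (0.0566), with a pseudocount of 0.1 (0.0501) and with no trend (0.05002). Its log2 fold change was 0.53 against Controls 1 and 2 alone and 0.24 against Controls 3 and 4 alone.

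**Figure D5:**
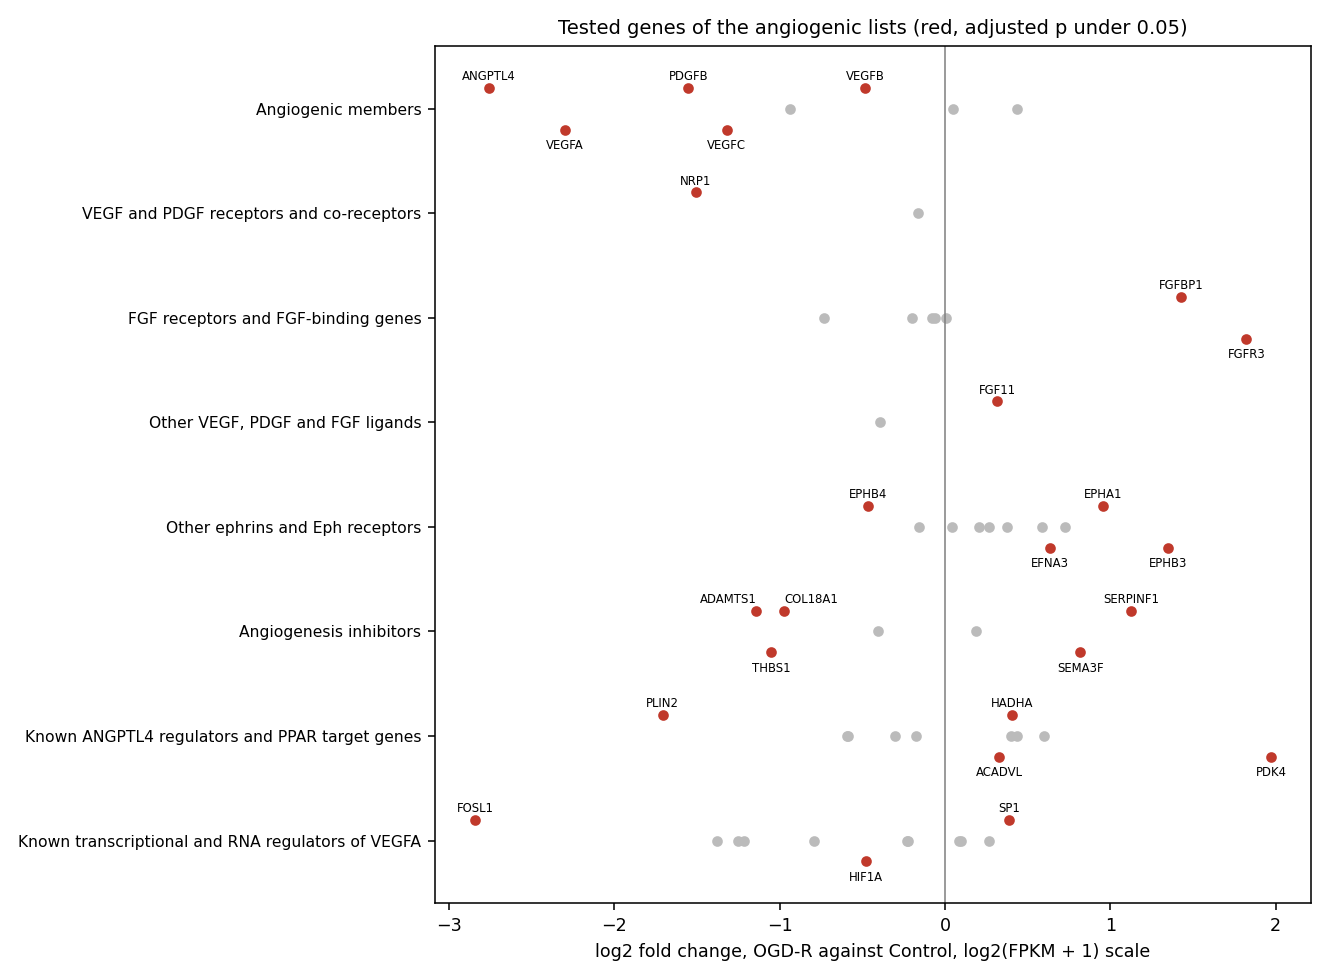
Log2 fold change, OGD-R against Control, on the log2(FPKM + 1) scale, for the tested angiogenic genes (top) and the tested genes of each related list, with genes at an adjusted p under 0.05 in red and named, set above or below the row for legibility only. ANGPTL4 and VEGFA lie at -2.76 and -2.30 on the left with FOSL1 at -2.84, and PDK4 lies at 1.97 on the right.

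The genes most like VEGFA in these 8 libraries, by the root mean square difference of log2 values centred over the libraries, were TRIB3 (0.137), CHAC1 (0.150), HDAC9 (0.151), KCNG1 (0.168) and HS3ST2 (0.181). TRIB3 and CHAC1 are known targets of the integrated stress response, HDAC9 is a histone deacetylase, KCNG1 a potassium channel subunit and HS3ST2 a heparan sulfate sulfotransferase. CHAC1 held 3.92, 4.01, 24.1 and 21.8 FPKM in Controls 1 to 4 and between 0.917 and 1.83 FPKM in OGD-R, the pattern of VEGFA at a lower level. The genes most like ANGPTL4 were FOSL1 (0.148), IL13RA2 (0.171), ADAM19 (0.307), MMP2 (0.311) and SLC20A1 (0.326). IL13RA2, a decoy receptor of interleukin 13, held 4.42, 5.91, 7.63 and 7.41 FPKM in Controls 1 to 4 and at most 0.299 FPKM in OGD-R. ADAM19 is a membrane metalloprotease, MMP2 the gelatinase A gene and SLC20A1 a phosphate transporter. These likenesses describe 8 libraries that share a treatment and the split of the Controls.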

How the data were processed

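RNA sequencing of 8 HaCaT libraries was used, 4 Control and 4 OGD-R, grouped by title. The labels' protocols start from total RNA and name 2 kits, NEBNext and SMARTer. Each library has its own table of gene IDs, symbols and values, and the value column of Control 3 has an abbreviated header. Aligner, counter, build and annotation: not given in the sources used here; no step is assumed for them. The values that the authors deposited were taken as FPKM because their sums differ between libraries and the lowest values of single-exon genes repeat at a step divided by gene length. Between 11 and 19 of 61 to 81 such values per library were within 0.5% of the step that fitted best, and the unit and the implied depth rest on few values. FPKM gives no counting error per gene, so none is stated.

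Of 24252 rows, 19974 carried Ensembl IDs, all found in GENCODE 29, whose GRCh38 coordinates are printed. Any 2 libraries had at most 1 equal value above 0. Genes averaging 1 FPKM or more were tested as log2(FPKM + 1) with limma 3.58.1 in R 4.3.3 (intensity trend, Benjamini-Hochberg adjustment over 11740 genes), a scale that understates changes of low genes. PGF and FGF2 fell under this level and had an exact permutation test (scipy 1.17.1). Limma and the permutation test treat the libraries of a group as independent, which the pairing of the Controls puts in doubt. The fit was run on simulated data in which all libraries took the spread of the OGD-R libraries. That simulation does not cover the wider spread and the split of the Controls, so it does not show how the fit behaves with them. Same-numbered libraries were compared by their deviations from the group means. Figures used matplotlib 3.10.9.

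The members, the 8 related lists and the 4 marker lists were chosen with earlier results of these data known. From the list of ANGPTL4 regulators and PPAR targets 1 gene is not reported here and was left out of its counts. Named were all members, up to 4 called genes of each list by size of change, and the 5 genes most like VEGFA and ANGPTL4. SEMA3F, COL1A1, CD68, VWF, DCN, LUM, the receptors under 0.5 FPKM and the list genes called in opposite directions were named after their values were seen. Alternatives covered pseudocounts, filters, the trend, scalings, a replicate block, each library and each Control pair left out. Count-based tests were foreseen and not used, because the values are not counts.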

Additional observations from a re-analysis of the deposited data

How the results depend on the processing

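ANGPTL4 and VEGFC kept their decrease and their call under every alternative run that tested them, 18 for ANGPTL4 and 17 for VEGFC, which a mean of at least 5 FPKM leaves out. PDGFA was called in none of 18. VEGFB lost its call only with a replicate block (limma adjusted p = 0.0567). The block also ended the calls of PDGFB (0.0563), EPHB4 (0.0521), HIF1A (0.0542), ADAMTS1 (0.0597), THBS1 (0.0628), SP1 (0.113), HADHA (0.115), ACADVL (0.115) and FGF11 (0.122). EFNA1 reversed to -0.48 without Controls 1 and 2, and EPHA2 to 0.13 and TIMP3 to 0.67 without Controls 3 and 4. PGF and FGF2 kept their direction in all 10 alternatives each, but these only left libraries out. With groups that do not overlap, leaving libraries out cannot change the direction. The number of members lower was 3 with a replicate block. It was also 3 with a mean of at least 5 FPKM, where VEGFC and PDGFB were not tested and no tested member lost its call. The number higher was 1 without Controls 3 and 4. Over single libraries left out, the number lower ran from 3 to 5 and the number higher was 0 throughout.

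Over all genes, 1202 were higher and 1138 lower. Without Controls 3 and 4 the counts were 2674 and 3819, and without Controls 1 and 2 they were 4604 and 3338. With a mean of at least 5 FPKM 689 were higher, from fewer genes tested. Over single libraries left out, the counts ran from 710 to 1426 higher and from 561 to 1312 lower. With the replicate block they were 625 and 507. Deviations of same-numbered libraries correlated between 0.045 and 0.0646, so the numbers do not show that the libraries are paired. Neither rescaling changed a member's direction or call, and rescaling without mitochondrial genes moved the median log2 fold change of all genes to 0.082. FPKM without counts leaves the counting error of PGF and FGF2, the lowest members, unknown.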

Other observations

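The genes that bind AU-rich elements and speed the decay of VEGFA and cytokine messengers, ZFP36 and ZFP36L1, were high in the same Controls as VEGFA. ZFP36 held 15.7, 17.8, 78.9 and 98.5 FPKM in Controls 1 to 4 and between 15.4 and 16.6 FPKM in OGD-R. ZFP36L1 held 72.7, 83.6, 374 and 433 FPKM in Controls 1 to 4 and between 70.4 and 75.7 FPKM in OGD-R. Neither passed the test with all libraries (limma adjusted p = 0.183 and 0.174) or without Controls 3 and 4 (0.578 and 0.382). Without Controls 1 and 2 their log2 fold changes were -2.38 and -2.43 (limma adjusted p = 2.45e-08 and 8.05e-09), and OGD-R lay near Controls 1 and 2, where VEGFA was 2.29 times its OGD-R mean. These genes were named after their values were seen.

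Among low ligands outside the test, FGF5, known as a regulator of the hair cycle, held 0.391, 0.377, 1.14 and 1.12 FPKM in Controls 1 to 4 and between 0.156 and 0.243 FPKM in OGD-R. PDGFD went the other way, with 0.408, 0.356, 0.312 and 0.426 FPKM in Controls 1 to 4 and between 0.572 and 0.898 FPKM in OGD-R. TIMP3, a matrix protein that also blocks VEGFA from its receptor, held 7.07, 5.84, 34.2 and 30.3 FPKM in Controls 1 to 4 and between 9.83 and 12.4 FPKM in OGD-R, with a limma adjusted p of 0.633. Its log2 fold change was 0.67 against Controls 1 and 2 alone and -1.49 against Controls 3 and 4 alone. FGF5 and PDGFD were also chosen after their values were seen. Each had an exact two-sided permutation p of 0.0286, the smallest possible, and in the limma fit with no filter on low values the adjusted p was 0.0802 for FGF5 and 0.0319 for PDGFD. That fit called 1668 of 21214 genes higher and 1140 lower.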
